A study of Mus musculus with 9 samples.

Results

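The genes named Mrpl and Mrps encode the proteins of the mitochondrial ribosome. Rows of the count table were taken by name, as Mrpl or Mrps followed by a number, and 5 pseudogene rows with -ps in their names were left out. This gave 78 members of 55278 usable gene rows, 49 named for the large subunit (Mrpl) and 29 for the small subunit (Mrps). RNA-seq of 9 libraries measured them in dendritic cells that had been sorted from thymi of C57BL/6 mice, 8 weeks old. No mutant allele, transgene or treatment is labelled for any group. The 3 populations, with 3 libraries each, carry the names of surface proteins. XCR1 marks type 1 conventional dendritic cells, SIRPa (SIRPα) marks type 2 conventional dendritic cells, and CD301b is a lectin encoded by Mgl2. The gates, the number of cells and any pooling of animals were not given in the sources used here.

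Mitochondrial ribosomes translate the few messenger RNAs of the mitochondrial genome, all of which code for subunits of the respiratory chain and the ATP synthase. Their ribosomal RNAs are made inside the mitochondrion, whereas every protein of the particle is encoded in the nucleus, made in the cytosol and imported. The large subunit joins amino acids and holds the exit tunnel of the new protein, and the small subunit reads the messenger RNA. Mrpl and Mrps are historical names. The products of Mrps18a and Mrps30 sit in the large subunit, and that of Mrps36 is known as a part of the 2-oxoglutarate dehydrogenase complex. The counts below go by symbol.

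The question here was whether the 3 populations differ in the transcripts of this particle. Most members did not pass the test. Between SIRPa and XCR1, 9 Mrpl genes were lower in SIRPa, by 1.44-fold to 2.29-fold, and no member was called higher. These 9 are 11.7% of the tested members, near the 10.7% of all genes tested that were called lower. Of all genes tested, 13.9% were called higher. The smallest p was that of Mrpl42, a large-subunit protein. Its libraries were lowest in SIRPa, intermediate in CD301b and highest in XCR1, and the step from SIRPa to CD301b did not pass. Between CD301b and XCR1, 3 members passed (3.9%, against 22.6% of all genes), and between CD301b and SIRPa none did (against 4.28%). A member that did not pass is not shown to be equal.

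The promoters of the 4 members with the smallest p between SIRPa and XCR1 are shown because these genes were lower in the same population. Each line gives the 250 bases before the RefSeq start on GRCm38.p6, read 5′ to 3′ on the strand of the gene. Capitals mark the motifs searched for, named after the sequences.
Mrpl42, chr10:95501950-95502199, minus strand: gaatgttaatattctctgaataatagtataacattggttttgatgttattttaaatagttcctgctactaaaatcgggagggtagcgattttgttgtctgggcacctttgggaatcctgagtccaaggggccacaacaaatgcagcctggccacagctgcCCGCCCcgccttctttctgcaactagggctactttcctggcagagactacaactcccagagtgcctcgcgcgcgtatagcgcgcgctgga
Mrpl22, chr11:58171414-58171663, plus strand: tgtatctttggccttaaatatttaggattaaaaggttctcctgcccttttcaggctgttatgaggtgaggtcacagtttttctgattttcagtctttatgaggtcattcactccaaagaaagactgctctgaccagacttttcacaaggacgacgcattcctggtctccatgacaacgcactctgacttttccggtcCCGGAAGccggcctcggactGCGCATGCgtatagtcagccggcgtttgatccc
Mrpl51, chr6:125191950-125192199, plus strand: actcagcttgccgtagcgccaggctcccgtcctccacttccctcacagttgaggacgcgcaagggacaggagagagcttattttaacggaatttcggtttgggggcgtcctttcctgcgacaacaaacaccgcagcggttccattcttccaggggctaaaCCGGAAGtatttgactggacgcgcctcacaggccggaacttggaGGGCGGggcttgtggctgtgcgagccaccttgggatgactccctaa
Mrpl37, chr4:107066867-107067116, minus strand: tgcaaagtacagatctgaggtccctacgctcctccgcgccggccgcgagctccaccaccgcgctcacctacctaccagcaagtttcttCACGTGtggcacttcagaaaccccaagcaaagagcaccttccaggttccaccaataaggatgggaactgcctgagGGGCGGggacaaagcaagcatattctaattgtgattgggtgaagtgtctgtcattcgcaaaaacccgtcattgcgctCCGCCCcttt

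The motifs were searched on both strands of windows from 250 bases before to 50 bases after the start. They were NRF1 (GCGCATGC), YY1 (AANATGGCG), ETS (CCGGAAG), SP1 (GGGCGG), the MYC E-box (CACGTG) and the TATA box (TATAAA). No motif holds another. NRF1, YY1 and ETS factors such as GABP are known to act on nuclear genes of mitochondrial proteins. A match is a string of letters and not a shown binding site. Mrpl22 held the ETS and the NRF1 string 53 and 33 bases before its start. Mrpl42 and Mrpl37 held the YY1 string just past their starts, from bases 28 and 27. These stretches read as follows, with the YY1 string in capitals.
Mrpl42: ttgaagcAAGATGGCGagcgcgcgg
Mrpl37: acgggcaAAGATGGCGgcgtccagg

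RefSeq windows were matched for 69 of the 78 members. The ETS string was in 26 of these 69 (37.7%), against 20% of 10294 tested genes with a window and 9.93% of all 27018 genes with one. The YY1 string was in 11 (15.9%), against 5.8% and 2.76%, and the NRF1 string in 8 (11.6%), against 5.83% and 3.05%. The SP1 string was in 34 (49.3%), against 66.9% and 38.2%. The E-box was in 5 (7.25%), against 11.5% and 8.09%, and the TATA box in 5 (7.25%), against 8.8% and 15.7%. Members thus held the ETS, YY1 and NRF1 strings more often than the tested genes and the SP1 string less often, as a description with no test. The motifs were chosen after the printed sequences were seen, and those members are in the shares. A gene was counted if any of its windows held the string. The 69 members had 75 windows and the 10294 tested genes 13119, so tested genes had more windows each in which to match. Of the 9 members lower in SIRPa than in XCR1, 6 had a window, of which 4 held the SP1 string (Mrpl37, Mrpl42, Mrpl46 and Mrpl51), 3 the ETS string (Mrpl22, Mrpl51 and Mrpl52), 2 the YY1 string, and 1 each the NRF1 string, the E-box (Mrpl37) and the TATA box (Mrpl46).

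The members lie on 17 chromosomes. In the GENCODE annotation of mm10, 18 of 78 (23.1%) start head to head with another protein-coding gene within 1000 bases upstream, against 6.79% of 21938 protein-coding genes. The latter include genes that did not pass the filter here, and the share among tested genes was not computed. Between SIRPa and XCR1, 2 of 17 tested partners were lower and 2 higher, against 10.7% and 13.9% of all genes tested. Distances run between the outermost GENCODE starts. For Mrpl51 that start, at base 125191801 of chromosome 6, lies upstream of the whole RefSeq window printed above, which is therefore inside the GENCODE gene. From it Ncapd2, a condensin subunit that packs chromosomes in mitosis, starts 100 bases away. Ncapd2 was also lower in SIRPa, at 71.0 against 114 CPM, with a log2 fold change of -0.68 ± 0.17 (SE, adjusted p = 0.00414). Mrpl37 starts 120 bases from Cyb5rl, at 2.03 against 4.05 CPM (adjusted p = 0.339), and Mrpl54 starts 26 bases from Apba3, at 7.54 against 8.20 CPM (adjusted p = 0.882).

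Libraries held 20246092 to 25438864 counts. Xcr1 stood at 766 CPM in XCR1 libraries on average and at 9.61 or less in the others. Mgl2 stood at 624 CPM in CD301b and 23.2 or less in the others, and Sirpa at 646 in CD301b, 774 in SIRPa and 12.5 in XCR1. Genes of thymocytes and T cells, 19 in all, summed to 218 to 948 CPM over XCR1 libraries, with the highest value in replicate 3. The sum was 496 to 952 over CD301b and 718 to 1021 over SIRPa libraries. Cd4 and Tcf7 held most of the SIRPa mean of 861 CPM, at 305 and 250 CPM, against 24.0 and 150 in XCR1. Others went the other way, such as Rag1 (31.9 in SIRPa against 42.6 in XCR1) and Dntt (11.1 against 27.6). Of 18 tested genes of this list, 1 was called higher in SIRPa than in XCR1, 0 lower, and 17 did not pass. Granulocyte genes summed to 0 to 41.0 CPM in any library.

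All members except Mrpl53 passed the filter on low counts, so 77 were tested. Mrpl53 had 0 counts in every library, which allows up to 0.119 to 0.150 CPM per library by a floor of 3 counts. Of its 790 exonic bases, 695 are shared with Gm42688 on the same strand, and reads that fall in shared exons may not have been counted for it. Tested members held 64 to 2072 counts in a library, with a median of 416. Their mean levels ran from 7.10 to 58.6 CPM with a median of 19.2, against a median of 12.4 CPM over all 15417 genes tested. Replicates of a population differed by a median SD of 0.28 on the log2 scale, as much as the 5993 tested genes within the same range of mean level, members included (0.28).

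Levels of different members were compared only per length, as CPM per kilobase of annotated exon. By that measure members ran from 1.73 to 52.9, averaged over the 9 libraries, with a median of 7.33. The highest was Mrpl52, at 55.9 ± 19.7 in CD301b, 42.1 ± 5.15 in SIRPa and 60.6 ± 1.21 in XCR1 (SD, n = 3 in each population). By the mean over all 9 libraries Mrpl18 (35.0 ± 4.59 in CD301b, 29.1 ± 2.07 in SIRPa and 38.1 ± 4.03 in XCR1), Mrpl54 (33.8 over all), Mrps21 (31.2) and Mrps15 (25.2) followed. The order below Mrpl52 differed by population, with Mrps21 next in SIRPa (29.8) and Mrpl54 next in XCR1 (42.9). The lowest tested members were Mrpl47 (1.73), Mrps10 (1.83), Mrpl33 (2.01), Mrps35 (2.14) and Mrps17 (2.28). The lengths come from GENCODE M21, which may not be the annotation used for counting, and they count every annotated exon, also of rare transcripts.

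**Figure D1:**
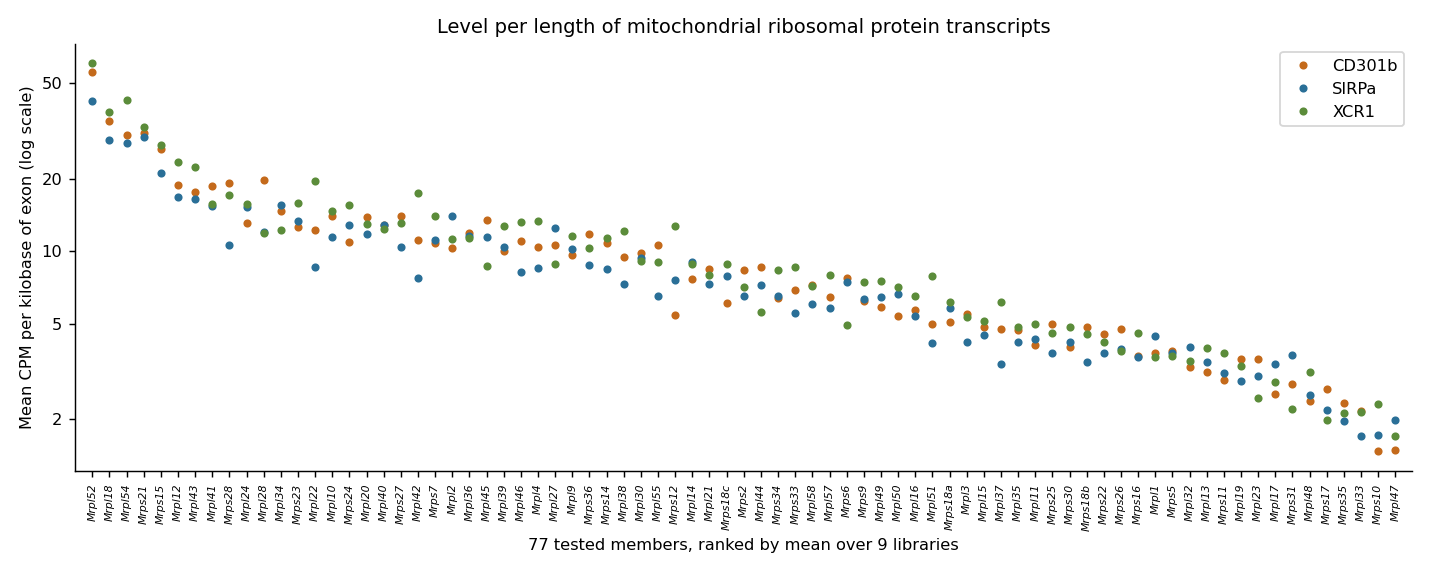
Mean level per kilobase of exon (log axis) of the 77 tested members in CD301b, SIRPa and XCR1 libraries, ranked by the mean over 9 libraries. The rank runs from Mrpl52 (52.9 CPM per kilobase) to Mrpl47 (1.73), a wider range than any member shows between populations.

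Summed over all members, transcripts of the particle made up 0.144 to 0.179% of the counts of a library. The sum was 1652, 1741 and 1457 CPM in CD301b replicates 1, 3 and 4. It was 1391, 1509 and 1503 CPM in SIRPa replicates 1 to 3, and 1724, 1869 and 1694 CPM in XCR1 replicates 1 to 3. All SIRPa libraries lay below all XCR1 libraries, while CD301b libraries overlapped with both. The means were 1616 ± 145 CPM for CD301b, 1467 ± 66.4 for SIRPa and 1762 ± 93.4 for XCR1. Mrpl and Mrps genes kept a steady proportion, with Mrpl genes at 64.9 to 66.9% of the sum in every library. These are bulk libraries of sorted cells, so fewer cells with much of a transcript and less of it in each cell cannot be told apart.

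**Figure D2:**
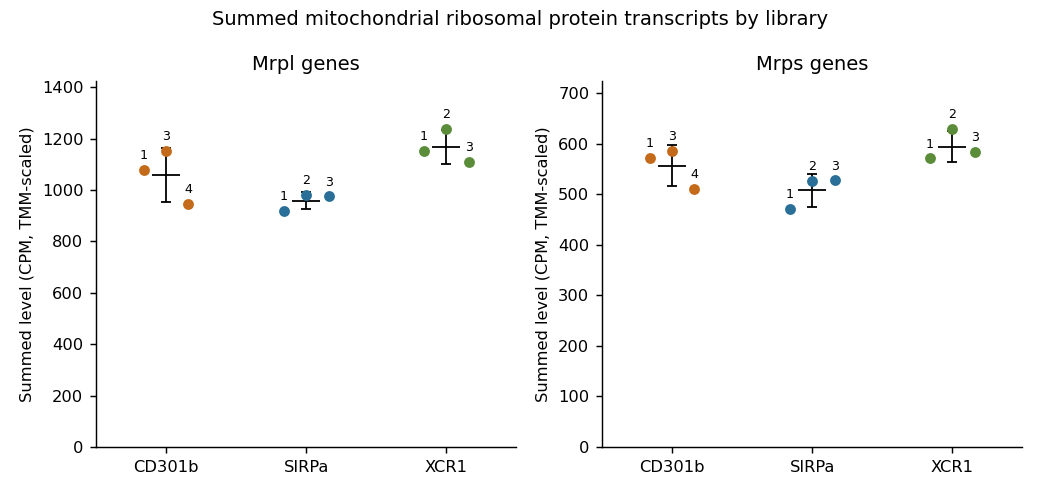
Summed level of Mrpl genes (left) and Mrps genes (right) in CPM on TMM-scaled library sizes, one point per library with its replicate number, and bars for mean ± SD (n = 3). The SIRPa points lie below the XCR1 points in both panels, at 920 to 983 against 1111 to 1239 CPM for Mrpl genes and 471 to 528 against 571 to 630 CPM for Mrps genes.

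The comparison of SIRPa with XCR1 asks how the type 2 population differs from the type 1 population. Of 77 members, 9 were lower in SIRPa, 0 were higher and 68 did not pass (edgeR quasi-likelihood test, Benjamini-Hochberg over all genes). The share called lower, 11.7%, was near the 10.7% of all genes tested, and the share called in either direction was below the 24.7% of all genes. Among all genes tested 13.9% were called higher in SIRPa. At an unadjusted p under 0.05 there were 12 members, against 33.3% of all genes. DESeq2 and limma-voom each called the same 9. The median log2 fold change of the members was -0.22, with 57 of 77 negative, against 0.06 over all genes and 0.00 over genes of like level. The groups did not overlap in 21 members that were lower in SIRPa and 1 that was higher, Mrps6, against 18.1% and 22.1% of all genes.

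**Figure D3:**
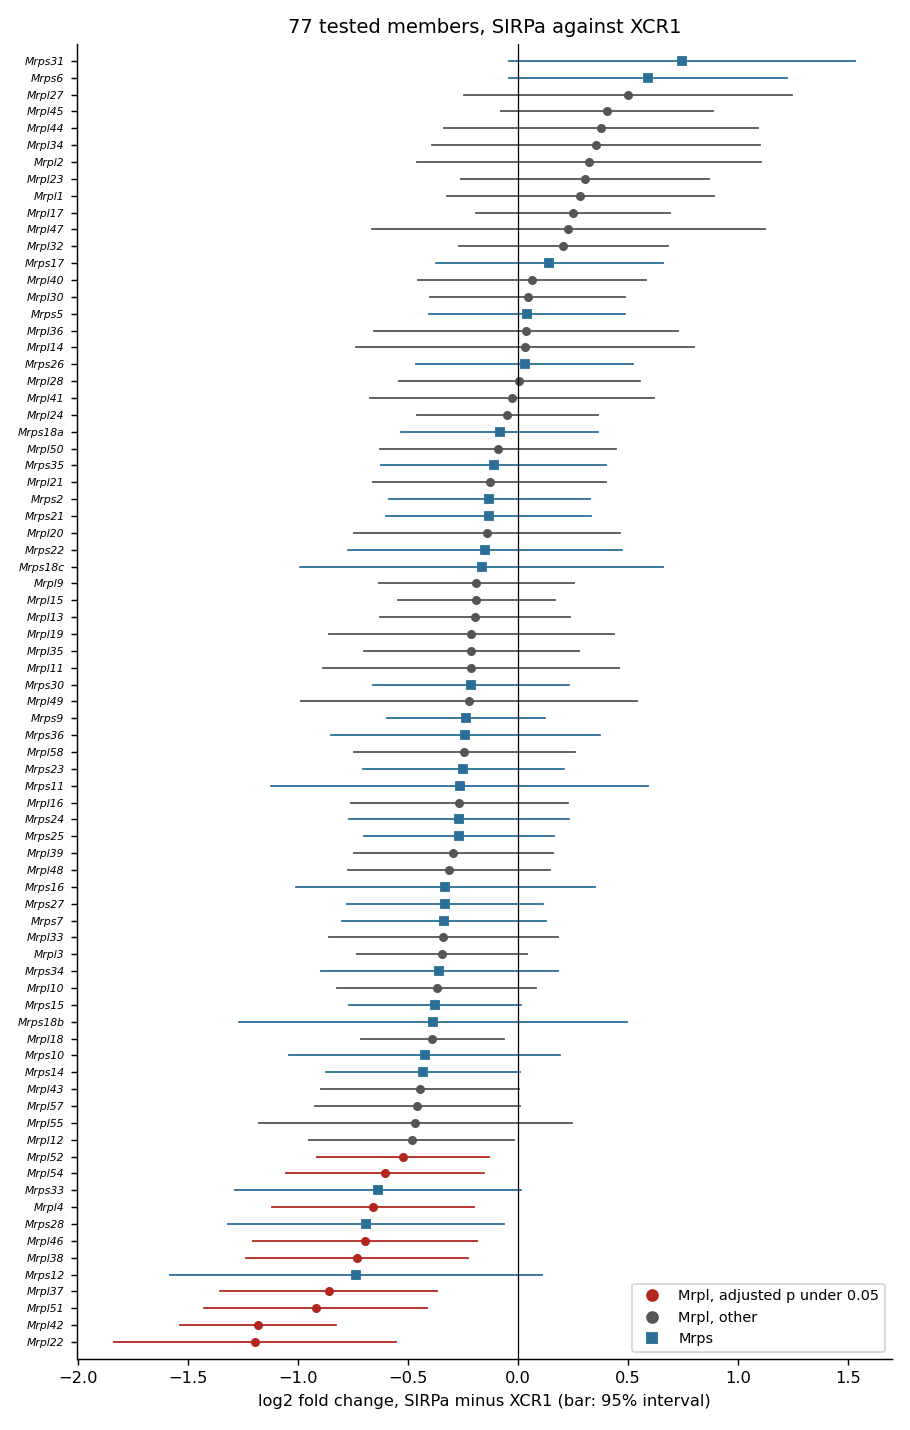
Log2 fold change of each of the 77 tested members, SIRPa minus XCR1, with its 95% interval, as circles for Mrpl and squares for Mrps genes. The 9 members past the threshold, in red, lie at -0.52 to -1.20, and none of the squares is red.

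Mrpl42 stood at 29.2, 28.7 and 27.2 CPM in SIRPa replicates 1 to 3 and at 56.9, 79.4 and 57.1 CPM in XCR1 replicates 1 to 3. In CD301b replicates 1, 3 and 4 it stood at 38.2, 38.2 and 46.5 CPM. No library of one population reached the range of another. SIRPa was 2.27-fold below XCR1, with a log2 fold change of -1.18 ± 0.17 (SE, 95% interval -1.54 to -0.83, adjusted p = 1.75e-05). This call held in each of the 18 alternative fits, with adjusted p of 0.000226 or less. The gene lies at chromosome 10, 95480805 to 95501940, on the minus strand, and shares no annotated exon bases with another gene.

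Mrpl51, another large-subunit protein particular to mitochondria, stood at 12.3, 17.8 and 20.5 CPM in SIRPa replicates 1 to 3 and at 33.5, 36.8 and 25.5 CPM in XCR1 replicates 1 to 3. The lowest XCR1 library lay above the highest SIRPa library. The log2 fold change was -0.92 ± 0.24 (adjusted p = 0.00733), and it passed in each of the 18 alternative fits. Mrpl22, which lines the exit tunnel of the new protein, stood at 9.75, 5.62 and 9.94 CPM in SIRPa and at 14.7, 25.7 and 17.6 CPM in XCR1 replicates 1 to 3. Its log2 fold change was -1.20 ± 0.31 (adjusted p = 0.00599). Mrpl37 stood at 14.0, 14.3 and 17.2 CPM in SIRPa and at 30.3, 31.9 and 20.5 CPM in XCR1, with a log2 fold change of -0.86 ± 0.24 (adjusted p = 0.00963). For Mrpl22 and Mrpl37 the groups did not overlap, and both calls were lost only without XCR1 replicate 2 (adjusted p = 0.0550 and 0.0540).

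The other 5 lower members were closer to the threshold. Mrpl4, a tunnel protein with bacterial relatives, stood at 28.3, 22.6 and 15.7 CPM in SIRPa and at 30.3, 39.7 and 35.3 CPM in XCR1 (adjusted p = 0.0328). Mrpl38 stood at 17.8, 24.8 and 13.1 CPM against 29.7, 38.7 and 24.2 CPM (adjusted p = 0.0301), and its groups overlapped, since SIRPa replicate 2 lay above XCR1 replicate 3. Mrpl46 stood at 11.2, 12.9 and 10.8 CPM against 19.8, 19.2 and 17.4 CPM (adjusted p = 0.0419). It is the neighbour of Mrps11, with which it shares 173 exonic bases on opposite strands, so reads there cannot be assigned without strand. Mrpl54 stood at 15.6, 29.8 and 24.4 CPM against 37.7, 34.6 and 33.7 CPM (adjusted p = 0.0459). Mrpl52 stood at 41.2, 46.4 and 52.6 CPM against 66.8, 66.1 and 68.7 CPM (adjusted p = 0.0468). For Mrpl4, Mrpl46, Mrpl54 and Mrpl52 every SIRPa library lay below every XCR1 library.

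Each of these 5 calls was lost when any 1 of several libraries was left out. Mrpl38 did not pass without SIRPa replicate 1 or 3 or XCR1 replicate 1 or 2 (adjusted p up to 0.179). Mrpl4 did not pass without SIRPa replicate 2 or 3 or XCR1 replicate 2 or 3 (up to 0.178). Mrpl46 passed only when the library left out was from CD301b, and reached adjusted p = 0.129 otherwise. Mrpl52 did not pass without SIRPa replicate 1 or 2 or any 1 XCR1 library (up to 0.167), and Mrpl54 not without CD301b replicate 3, SIRPa replicate 1 or 3 or any 1 XCR1 library (up to 0.236). The count of lower members was 2, Mrpl42 and Mrpl51, without XCR1 replicate 2, the library with the highest sum of members. It was 5 without SIRPa replicate 1 or 3 or XCR1 replicate 1 or 3, and 6 without SIRPa replicate 2, when Mrps31 was called higher. On library totals with no scaling factor the count was 4. Mrpl46 was also lost with no filter on low counts (adjusted p = 0.0807), and Mrpl54 when only the 6 libraries compared were fitted (0.0552).

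**Figure D4:**
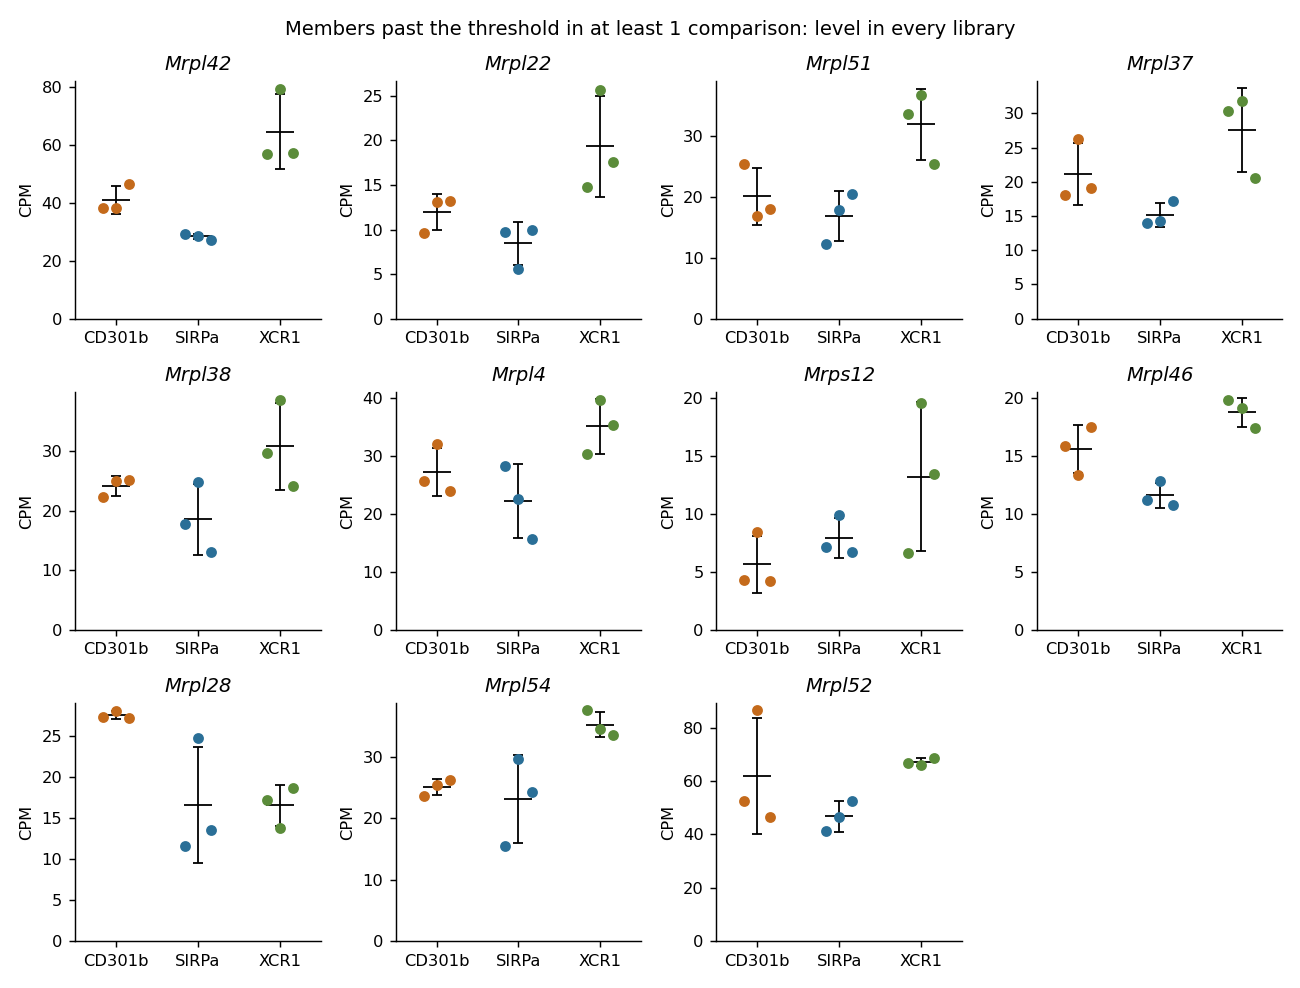
Level in CPM in every library of the 11 members past the threshold in at least 1 comparison, with a point per library and bars for mean ± SD (n = 3). The Mrpl42 points of the 3 populations do not overlap, though CD301b against SIRPa did not pass. Mrpl28 is the member called higher in CD301b than in XCR1, and the XCR1 points of Mrps12 spread from 6.63 to 19.5 CPM.

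No Mrps gene passed between SIRPa and XCR1 in edgeR, with 1 of 29 at an unadjusted p under 0.05. DESeq2 and limma-voom called none of them either. Their median log2 fold change was -0.25, beside -0.21 for the 48 tested Mrpl genes, so the medians were alike and the difference between the classes was not tested. Mrps28 came nearest, at 6.53, 10.7 and 7.82 CPM in SIRPa and 11.8, 15.3 and 13.3 CPM in XCR1 (adjusted p = 0.108). Mrps12, a protein of the decoding centre, stood at 7.10, 9.93 and 6.74 against 6.63, 19.5 and 13.5 CPM (adjusted p = 0.219). Among the uncalled members of highest level, Mrpl18 stood at 40.6 ± 2.89 CPM in SIRPa and 53.2 ± 5.63 in XCR1 (adjusted p = 0.0768), and Mrps15 at 35.9 ± 4.82 and 46.7 ± 11.2 (adjusted p = 0.164).

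Other lists also differed between SIRPa and XCR1, where 10.7% of all genes tested were lower and 13.9% higher in SIRPa. All 8 identity genes of type 1 dendritic cells were lower in SIRPa, and all 8 of type 2 were higher. Of 25 proliferation genes, 24 were lower in SIRPa, and their summed level was 1545 to 1965 CPM in SIRPa and 2908 to 3669 in XCR1 libraries. Mki67, a marker of dividing cells, stood at 413 against 863 CPM. Of 12 macrophage genes, all 12 were higher in SIRPa, with sums of 3427 to 3989 CPM against 225 to 243. Mertk was at 0 in 1 XCR1 library, while C1qb, a complement protein of macrophages, stood at 596 against 3.96 CPM. The part of these lists in the difference between members was not tested.

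The comparison of CD301b with XCR1 sets the other type 2 population beside the type 1 population, and it shares the XCR1 libraries with the one above. By edgeR's test, 1 of 77 members was higher in CD301b and 2 were lower, which left 74 that did not pass. Over all genes tested 13.5% were higher and 9.12% lower, or 22.6% together, so members were called less often than genes at large, as a description. At an unadjusted p under 0.05 there were 10 members, against 32.2% of all genes, and 5 without XCR1 replicate 2. Every CD301b library lay above every XCR1 library in 6 members and below in 9, against 19% and 15.4% of all genes. The median log2 fold change of the members was -0.11, with 46 of 77 negative, against 0.05 over all genes. It was -0.17 without CD301b replicate 3 and -0.07 without CD301b replicate 4. Mrpl42 was lower, with a log2 fold change of -0.65 ± 0.17 (adjusted p = 0.00654), a call lost only without XCR1 replicate 2 (0.0711).

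Mrpl28, a large-subunit protein with bacterial relatives, was the higher member. It stood at 27.3, 28.0 and 27.1 CPM in CD301b replicates 1, 3 and 4 and at 17.1, 13.8 and 18.7 CPM in XCR1 replicates 1 to 3, with no overlap. Its log2 fold change was 0.73 ± 0.26 (adjusted p = 0.0486). In SIRPa libraries it stood at 11.6, 24.6 and 13.5 CPM, of which replicate 2 lay near the CD301b level. Mrps12 was the other lower member, at 4.26, 8.47 and 4.21 CPM in CD301b, with a log2 fold change of -1.22 ± 0.41 against XCR1 (adjusted p = 0.0352) and overlapping groups. Sars2, the mitochondrial seryl-tRNA synthetase that starts 172 bases from Mrps12 on the other strand, stood at 6.91 against 9.74 CPM (adjusted p = 0.364).

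Neither call was stable. Mrpl28 did not pass without any 1 of the CD301b or XCR1 libraries or without SIRPa replicate 3 (adjusted p up to 0.166). Mrps12 was lost when CD301b replicate 1 or 4 or XCR1 replicate 2 or 3 was left out (up to 0.235), and when only the 6 libraries of the comparison were fitted (0.0557). The count was 1, Mrpl42, without CD301b replicate 4, and 4 without SIRPa replicate 1, when Mrpl51 was added. Mrpl51 was also called lower in CD301b without CD301b replicate 1 and without XCR1 replicate 3. Without XCR1 replicate 2 none of the 3 calls remained, and Mrpl44 and Mrpl45 were called higher in CD301b instead. With relative log expression or upper-quartile scaling, or in DESeq2, 0 were higher and 3 lower, Mrpl51 in place of Mrpl28. With limma-voom, without a filter or with a stricter one, 2 were higher and 3 lower, Mrpl45 and Mrpl51 being added. Mrpl45, which holds the ribosome at the inner membrane, had means of 35.0 ± 4.57 CPM for CD301b, 29.7 ± 7.24 for SIRPa and 22.5 ± 6.74 for XCR1 (adjusted p = 0.0523 against XCR1).

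Of the 25 proliferation genes, 19 were lower in CD301b than in XCR1, with sums of 1992 to 2116 against 2908 to 3669 CPM. All 12 macrophage genes were higher in CD301b, with sums of 2246 to 2559 against 225 to 243 CPM. Of all genes tested, 9.12% were lower and 13.5% higher in CD301b. The part of these lists in the differences of members between CD301b and XCR1 was not tested.

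The comparison of CD301b with SIRPa sets the type 2 populations side by side. By edgeR, 0 of 77 members passed, against 4.28% of all genes tested (2.2% higher and 2.08% lower in CD301b). At an unadjusted p under 0.05 there were 4, against 14.4% of all genes: Mrpl42, Mrps28, Mrpl28 and Mrpl52, all higher in CD301b. This count was 10 without CD301b replicate 4 and 2 without SIRPa replicate 1. DESeq2 and limma-voom also called 0. The median log2 fold change was 0.11, with 49 of 77 positive, against 0.01 over all genes, and it was 0.19 without CD301b replicate 4. Mrpl42 had the smallest p, with a log2 fold change of 0.53 ± 0.17 (95% interval 0.18 to 0.88, adjusted p = 0.0904). Without SIRPa replicate 2, 1 member passed, Mrpl28 (adjusted p = 0.0233). In 12 members every CD301b library lay above every SIRPa library and in 3 below, against 10.7% and 11.4% of all genes.

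**Figure D5:**
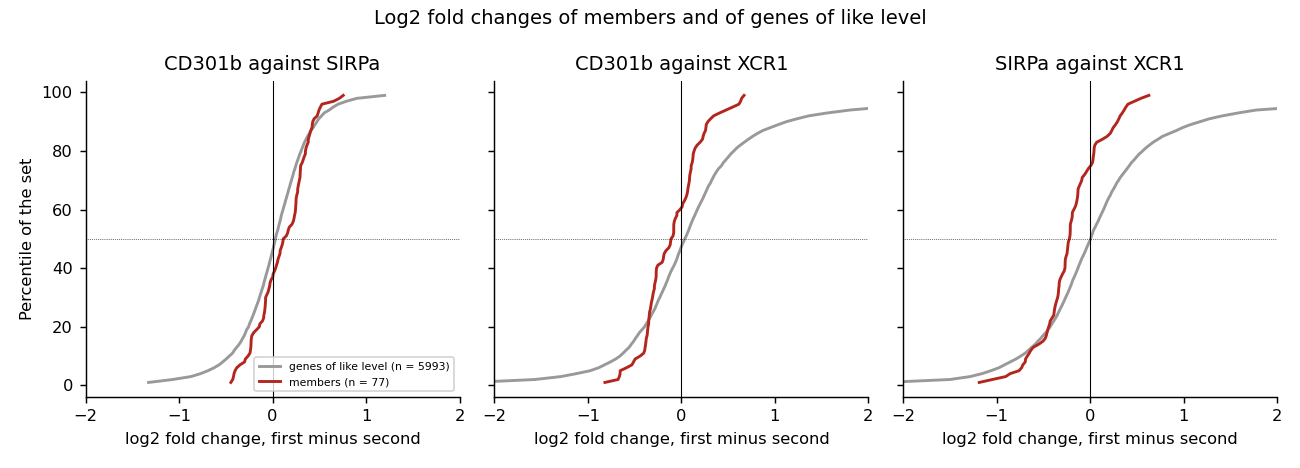
Percentiles of the log2 fold change (first population minus second) of the 77 members and of the 5993 tested genes within the members' range of mean level, for each comparison. The members' medians are 0.11 for CD301b against SIRPa, -0.11 for CD301b against XCR1 and -0.22 for SIRPa against XCR1, beside 0.03, 0.04 and 0.00 for the genes of like level, which include the members.

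The precision limits these statements. The median SE of a member's log2 fold change was 0.24 in each comparison. Between CD301b and SIRPa, the 95% interval lay within 2-fold in either direction for 65 of 77 members, and within 1.5-fold for 17. It lay within 2-fold for 58 between CD301b and XCR1 and for 54 between SIRPa and XCR1. The median size of the log2 fold change, without its sign, was 0.25 for members between CD301b and SIRPa, against 0.23 for genes of like level. It was 0.27 against 0.36 between CD301b and XCR1, and 0.28 against 0.37 between SIRPa and XCR1.

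Members known for another role did not pass in any comparison. Mrpl12, a stalk protein that also binds the mitochondrial RNA polymerase, had means of 29.0 ± 9.16, 25.7 ± 3.68 and 35.9 ± 6.18 CPM for CD301b, SIRPa and XCR1, the order kept below. Its smallest adjusted p over the 3 comparisons was 0.132, between SIRPa and XCR1. Mrpl41, described also as a partner of p53 in cell death, stood at 16.6 ± 4.97, 13.6 ± 3.23 and 13.9 ± 4.87 CPM. Mrpl58, a peptidyl-tRNA hydrolase that frees stalled ribosomes, stood at 24.0 ± 4.47, 20.2 ± 5.52 and 23.9 ± 4.28 CPM. Mrps27, an RNA-binding protein of the pentatricopeptide type, stood at 29.2 ± 2.66, 21.8 ± 3.20 and 27.4 ± 6.28 CPM. Mrpl44, which has a fold of the ribonuclease III family, had a mean of 14.2 ± 0.280 CPM for CD301b against 9.21 ± 4.25 for XCR1, and was called higher in CD301b than in XCR1 only without XCR1 replicate 2 (adjusted p = 0.0478).

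The paralogs Mrps18a, Mrps18b and Mrps18c did not pass in any comparison. Mrps18a stood at 18.6 ± 2.04, 21.3 ± 1.18 and 22.6 ± 3.77 CPM. Mrps18b stood at 10.1 ± 4.45, 7.21 ± 2.16 and 9.42 ± 4.93 CPM, with 638 of its 2089 exonic bases opposite Gm16279. Mrps18c stood at 6.54 ± 3.23, 8.47 ± 1.43 and 9.50 ± 2.18 CPM, with 250 of its 1076 exonic bases shared with Gm43511 on the same strand. Mrps36 stood at 15.1 ± 0.878, 11.1 ± 3.72 and 13.2 ± 2.15 CPM. It has 3 pseudogene rows, which held 117, 58 and 0 counts over all 9 libraries, so the split of reads between them is uncertain. Of the 78 members, 8 share exonic bases with another gene on the same strand and 28 on the opposite strand.

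The rest of the mitochondrial translation machinery was read from lists. Of 5 subunits under other names, 1, Chchd1, was lower in CD301b than in XCR1, at 18.5 ± 4.38 against 28.7 ± 3.40 CPM (adjusted p = 0.0476), and none passed in the other comparisons. Of 27 assembly factors, C1qbp, a matrix protein that binds RNA, was the 1 called. Its means were 65.2 ± 11.1 CPM for CD301b, 62.7 ± 2.41 for SIRPa and 90.7 ± 2.88 for XCR1, and it was lower than in XCR1 in CD301b (adjusted p = 0.0158) and SIRPa (adjusted p = 0.00662). Of 16 translation factors none passed in any comparison. Lrpprc, which stabilises mitochondrial messenger RNA, stood at 69.6 ± 7.61, 67.0 ± 2.53 and 69.7 ± 6.28 CPM, and Tufm, the elongation factor that brings tRNA to the ribosome, at 43.0 ± 12.3, 32.2 ± 0.300 and 42.5 ± 7.19 CPM. Of 20 genes of mitochondrial tRNA charging, 1, Lars2, was higher in CD301b than in XCR1, at 1137 against 814 CPM (adjusted p = 0.00811). Lars2 held most of the sum of this list, which was 1369 ± 220 CPM for CD301b and 1058 ± 145 for XCR1. Whether all reads counted for Lars2 came from its messenger RNA was not tested.

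Of 18 tested genes of mitochondrial transcription and RNA processing, 1 was lower in CD301b than in XCR1 and 2 in SIRPa than in XCR1. Elac2, which trims the 3′ ends of mitochondrial tRNAs, was lower in both. Its means were 21.9 CPM for CD301b, 25.5 for SIRPa and 61.9 for XCR1, with log2 fold changes of -1.50 ± 0.26 (adjusted p = 0.000365) and -1.28 ± 0.26 (adjusted p = 0.00133) against XCR1. Tbrg4, a FASTK family protein of mitochondrial RNA, stood at 16.5 CPM in SIRPa and 26.5 in XCR1 (adjusted p = 0.0367). Of 12 regulators of mitochondrial biogenesis, 3 were higher and 1 lower in CD301b than in XCR1, and 3 higher and 2 lower in SIRPa than in XCR1. Over all genes tested, 13.5% were higher and 9.12% lower in CD301b, and 13.9% higher and 10.7% lower in SIRPa. The coactivator Ppargc1b had means of 15.5 CPM for CD301b, 14.3 for SIRPa and 4.30 for XCR1 (adjusted p = 0.000169 and 0.000310 against XCR1). Its relative Ppargc1a, also among the higher genes, had 0 counts in all XCR1 libraries. By the floor of 3 counts this allows up to 0.143 to 0.150 CPM per library, so no fold change is given for Ppargc1a. The growth kinase Mtor went the other way, at 91.7, 93.7 and 139 CPM (adjusted p = 0.000694 and 0.00108). Nrf1, Gabpa and Yy1, whose motifs were searched above, did not pass in any comparison.

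The RNAs made inside mitochondria did not pass in any comparison. The 13 messenger RNAs summed to 5539 ± 1486 CPM for CD301b, 5627 ± 128 for SIRPa and 5524 ± 234 for XCR1, and 11 of them were tested. The ribosomal RNAs mt-Rnr1 and mt-Rnr2 summed to 76209 ± 9270, 82108 ± 3267 and 79899 ± 9493 CPM. Whether ribosomal RNA was depleted from the libraries was not given in the sources used here, so these levels are not set beside those of the proteins.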

How the data were processed

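RNA-seq of 9 libraries (3 populations of thymic dendritic cells, 3 libraries each) was deposited as whole-number read counts per gene symbol and as a second table of log2 CPM. Per the submitters' processing notes, the build was mm10. The tools named there are HISAT2, featureCounts (Subread), edgeR, Trimmomatic, FastQC and SAMtools, in no stated order. Versions, annotation and strand setting were not given in the sources used here. The libraries were made with a stranded kit, per the labels' protocols. The source name in the labels says thymocytes and the cell type says dendritic cells. The design text speaks of 3 mice, and the labels do not say which libraries came from separate animals. The p-values then measure only the spread between libraries, which may be technical.

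Of 55302 rows, 24 had been turned into dates (0.125 to 0.187% of a library's counts) and were left out. Genes were kept with filterByExpr (minimum count 10), leaving 15417. Library sizes were scaled by TMM. The main test was edgeR's quasi-likelihood test (robust, two-sided) in 1 fit of all 9 libraries, with p adjusted by Benjamini-Hochberg over all genes of a comparison and a threshold of 0.05. Versions were edgeR 4.0.16, DESeq2 1.42.0 and limma 3.58.1 in R 4.3.3, and the fit was tested on simulated data. CPM values are on TMM-scaled library sizes. Floors and counts cover counting error only, since no molecular identifiers are stated. The authors' deposited log2 CPM of the 77 matched members differed from log2 CPM computed from the counts by 0.06 to 0.18 in the median member of a library, nearly the same for all members (interquartile range up to 0.00322), and were used for this check alone.

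The members, the lists and the tests were chosen with earlier results of these data known, and the promoter motifs after the printed sequences were seen. Named are the members called in each comparison (up to 10 per direction), the uncalled member of highest level of each subunit, the 5 highest and 5 lowest per length, members of known second role, members that failed the filter, and up to 3 called genes per list or the highest uncalled one. The text gives only some of them, and Mrps28, Mrps31, Mrpl45, the genes beside promoters and those of marker lists were named outside that rule. Intervals are 95%. Alternatives were other scalings, tools, filters, the 6 libraries compared, a replicate block and leaving out each library.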

Additional observations from a re-analysis of the deposited data

How the results depend on the processing

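Depth and 3 libraries per population limit the test: members held a median of 416 counts per library. Of 216 re-tests of the 12 member calls, 163 stayed past the threshold, 53 did not, and none changed direction. With 1 library left out, members called ranged from 0 to 1 for CD301b against SIRPa, from 1 to 4 for CD301b against XCR1, and from 2 to 9 for SIRPa against XCR1. The count between CD301b and XCR1 was 5 with limma-voom, 5 with no filter and 5 with the stricter filter, in place of 3. The count between SIRPa and XCR1 was 4 with no scaling factor, in place of 9. Without the 5 members of highest level, the summed level was by construction lower, at 1378 CPM for CD301b, 1278 for SIRPa and 1487 for XCR1.

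The titles number the libraries, and the labels do not say whether a number marks an animal. Deviations from the population means of same-numbered libraries correlated at 0.00 to 0.04 over 7 pairs, with a median of 0.02. Over 20 pairs of other numbers they correlated at -0.07 to 0.05, with a median of -0.01. Whether the numbers pair the libraries was not tested. With the replicate number as a block, members called were 0, 2 and 9 in the comparisons of CD301b with SIRPa, CD301b with XCR1 and SIRPa with XCR1. Between CD301b and XCR1 the 2 were Mrpl42 and Mrpl45, while Mrpl28 and Mrps12 did not pass. The block moved the median of the members between CD301b and SIRPa from 0.11 to 0.22, and CD301b replicate 4, alone with its number, then adds nothing. Of 8 libraries with a same-numbered one, 4 correlated best with it.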
